A study of Mus musculus with 6 samples.

Results

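Glycogen genes were followed in RAW264.7, a mouse macrophage-like cell line established from a tumor induced by Abelson leukemia virus. The set held 9 genes, Gys1, Gbe1, Gyg, Ugp2, Pygl, Pygb, Phka2, Ppp1r3c and Stbd1, taken by gene name from a table of 28836 genes. They were selected on their counts and FPKM values in GB2-treated against untreated libraries, seen in an earlier round of work, so their differences between groups are described here without p-values. Bulk mRNA was sequenced in 3 GB2-treated and 3 untreated libraries. GB2 is a prodrug in which the STING agonist MSA-2 is coupled to artesunate, which the study used against the myeloid receptor TREM2. All 6 libraries come from the same unmodified line, and the labels state neither a dose nor a time of exposure, which the study's description of the culture gives and which are not repeated here. The study's design places the macrophages in the lower chamber of a transwell with tumor cells above. The sources used here do not state whether untreated wells also held tumor cells. Labels number the replicates without naming separate cultures, so the statistics measure the spread between these libraries.

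Glycogen is a branched polymer of glucose that cells build when glucose is plentiful and break down on demand. Synthesis runs from glucose 6-phosphate through glucose 1-phosphate to UDP-glucose, is primed on the self-glucosylating protein glycogenin, extended by glycogen synthase and branched by the branching enzyme. Breakdown in the cytosol starts with glycogen phosphorylase, while acid alpha-glucosidase degrades glycogen in lysosomes. Phosphorylase kinase switches phosphorylase on, and protein phosphatase 1 (PP1), held on the particle by targeting subunits, reverses phosphorylation of both synthase and phosphorylase. Macrophages are known to store glycogen, and hypoxia is known to induce glycogen synthesis genes in several cell types.

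Totals ranged from 62660734 to 71654097 estimated counts in GB2-treated libraries and from 73077089 to 77337345 in untreated libraries. All 7 macrophage markers (Adgre1, Csf1r, Cd68, Lyz2, Ptprc, Itgam and Spi1) were detected in every library, with summed levels of 6973.25 to 8061.89 FPKM in GB2-treated libraries against 14571.67 to 15119.35 FPKM in untreated libraries. Most of that sum was Lyz2, which was lower in every treated library, as were Adgre1, Csf1r, Cd68 and Spi1. Csf1r had 101.94 to 106.76 FPKM in treated libraries, against 272.42 to 287.85 FPKM untreated. Itgam was higher in treated libraries (197.45 to 208.45 FPKM, against 154.69 to 160.26 FPKM untreated). The ranges of Ptprc overlapped (17.58 to 19.70 FPKM, against 17.00 to 19.47 FPKM untreated). FPKM is the estimated count scaled to a length for each gene and to library size. How that length was defined is not given in the sources used here, so levels compared between genes are approximate. GB2-treated replicates 2 and 3, unlike replicate 1, carried markers of other tissues, and values of these libraries are given with each gene high in that pair. The pair had 23300 and 23189 genes with a count, against 21283 in GB2-treated replicate 1 and 20842 to 20984 in untreated libraries. By the chi-square per degree of freedom of counts, the pair were not the closest treated libraries. It was 58.3 between replicates 1 and 3, 83.6 between 2 and 3, and 138.7 between 1 and 2.

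The 9 genes fell into different patterns in the plot of levels by library. Gys1, Gbe1 and Ugp2, which supply synthesis and branching, were higher in all 3 GB2-treated libraries at nearly equal levels. Gyg, Pygb and Phka2 were lower in all 3. Pygl, Ppp1r3c and Stbd1 were low genes whose higher levels lay mainly in GB2-treated replicates 2 and 3. Groups did not overlap for 7 of the 9 genes, the exceptions being Ppp1r3c and Stbd1, beside 61.9% of all tested genes. Of these 4 were higher and 3 lower, beside 27.4% and 34.5% of all tested genes. Of the 9 genes, 8 passed the default expression filter of edgeR and 1, Ppp1r3c, did not. Calls required an edgeR FDR below 0.05 and a log2 change of 1 or more in either direction. By that rule 4 of the 8 were called higher (Gys1, Gbe1, Pygl and Stbd1), beside 13.4% of all 17124 tested genes, and 0 were called lower, beside 7.73%. The DESeq2 Wald test also called 0 lower. At the FDR threshold alone 5 were higher and 3 lower, beside 56.4% of all tested genes, 26.8% higher and 29.6% lower. Since the genes were selected on these values, nothing is read from these counts. The median log2 change was 1.30 over the 8 genes and 0.01 over all tested genes. In bulk RNA, a change in the number of cells carrying a transcript and a change in transcript per cell cannot be told apart.

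**Figure D1:**
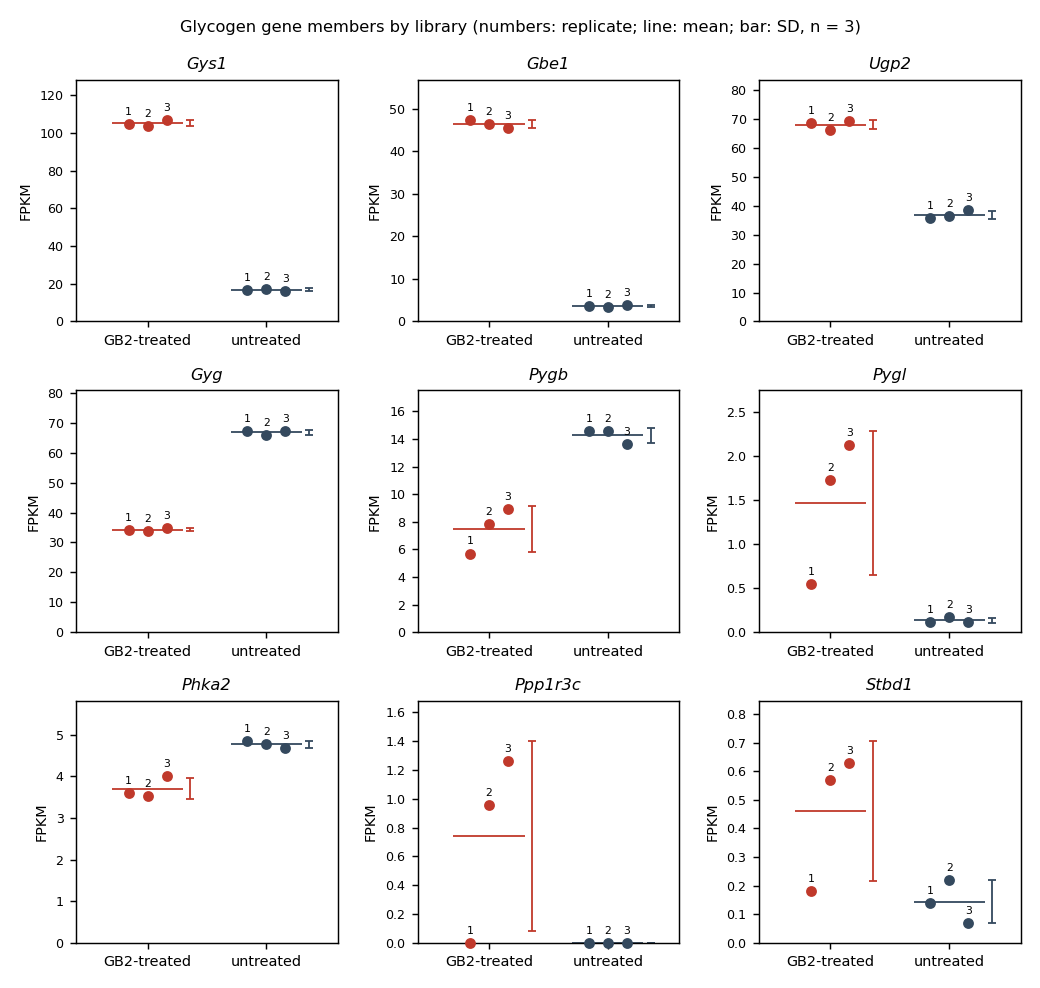
FPKM of the 9 glycogen genes in each library, with 1 panel per gene, its own axis from 0, GB2-treated libraries on the left and untreated libraries on the right. Points are libraries with their replicate number, lines are means and bars are SDs (n = 3). Gys1, Gbe1 and Ugp2 lie above, and Gyg, Pygb and Phka2 below, every untreated library, while GB2-treated replicate 1 lies below replicates 2 and 3 for Pygl, Ppp1r3c and Stbd1.

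Glycogen synthase and branching enzyme transcripts were higher in GB2-treated cells, with almost no spread between treated libraries. Gys1, the synthase isoform of muscle and most other tissues (ENSMUSG00000003865, chr7:45434844-45456619, plus strand), had 105.04, 103.93 and 106.93 FPKM in GB2-treated libraries 1, 2 and 3, against 16.92, 17.48 and 16.14 FPKM in untreated replicates 1, 2 and 3. The treated libraries had a coefficient of variation of 1.44% and lay far above the untreated range. Its log2 change was 2.66 ± 0.05 (SE), or 6.32-fold, and 2.73 when GB2-treated replicates 2 and 3 were left out.

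Gbe1, which encodes the branching enzyme that adds alpha-1,6 branch points (ENSMUSG00000022707, chr16:70313949-70569716, plus strand), had 47.26, 46.46 and 45.46 FPKM in GB2-treated libraries 1, 2 and 3, against 3.55, 3.37 and 3.81 FPKM in untreated replicates. This was the largest difference among the 8 genes tested, a log2 change of 3.71 ± 0.06 (SE), or 13.1-fold. It was as large with GB2-treated replicate 1 as the only treated library (3.81). Because Gbe1 differed more than Gys1, the ratio of Gys1 to Gbe1 FPKM was 2.27 ± 0.0710 in GB2-treated cells and 4.73 ± 0.476 in untreated cells (SD, n = 3 each).

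Ugp2 encodes UDP-glucose pyrophosphorylase, which makes the glucose donor for synthase (ENSMUSG00000001891, chr11:21321138-21371201, minus strand). It had 68.72, 66.30 and 69.34 FPKM in GB2-treated libraries 1, 2 and 3, against 35.91, 36.44 and 38.52 FPKM in untreated replicates. The groups were well apart, but the log2 change of 0.90 ± 0.04 (SE), or 1.87-fold, was under the fold threshold.

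Glycogenin went the other way. Gyg, the protein primer on which a glycogen chain starts (ENSMUSG00000019528, chr3:20122084-20155317, minus strand), had 34.16, 33.69 and 34.70 FPKM in GB2-treated libraries 1, 2 and 3, against 67.39, 65.85 and 67.20 FPKM in untreated replicates. The log2 change of -0.95 ± 0.03 (SE), or 1.93-fold lower, stayed just short of the fold threshold in every alternative fit (-0.98 to -0.88). The balance of synthase over primer transcripts was therefore far from equal in the groups, with a Gys1 to Gyg ratio in FPKM of 3.07, 3.08 and 3.08 in GB2-treated replicates, against 0.251, 0.265 and 0.240 in untreated replicates.

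Promoter windows from RefSeq on GRCm38.p6, the build of the deposited coordinates (mm10), were found for all 9 genes, and those of the 4 genes of the synthesis route are printed because they differ in the short motif marked in them. Each window is 300 bases, 250 before and 50 after the RefSeq start, read 5′ to 3′ on the gene's strand. The windows are chr7:45434589-45434888 (plus strand) for Gys1, chr16:70313699-70313998 (plus strand) for Gbe1, chr11:21371218-21371517 (minus strand) for Ugp2 and chr3:20155067-20155366 (minus strand) for Gyg. Capitals mark ACGTG or GCGTG on either strand, the short core that the hypoxia-inducible factors recognise.
Gys1: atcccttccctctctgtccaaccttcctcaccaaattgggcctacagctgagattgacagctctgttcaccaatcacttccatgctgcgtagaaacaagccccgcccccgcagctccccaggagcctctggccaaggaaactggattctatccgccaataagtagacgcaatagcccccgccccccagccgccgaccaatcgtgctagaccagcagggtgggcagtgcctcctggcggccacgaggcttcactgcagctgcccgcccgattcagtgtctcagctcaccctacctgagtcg
Gbe1: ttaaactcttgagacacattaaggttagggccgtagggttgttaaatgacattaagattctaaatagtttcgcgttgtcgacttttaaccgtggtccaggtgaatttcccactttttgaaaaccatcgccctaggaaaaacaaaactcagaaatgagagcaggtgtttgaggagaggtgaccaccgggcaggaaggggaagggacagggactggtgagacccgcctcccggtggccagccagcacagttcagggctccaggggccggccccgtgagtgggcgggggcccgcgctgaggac
Ugp2: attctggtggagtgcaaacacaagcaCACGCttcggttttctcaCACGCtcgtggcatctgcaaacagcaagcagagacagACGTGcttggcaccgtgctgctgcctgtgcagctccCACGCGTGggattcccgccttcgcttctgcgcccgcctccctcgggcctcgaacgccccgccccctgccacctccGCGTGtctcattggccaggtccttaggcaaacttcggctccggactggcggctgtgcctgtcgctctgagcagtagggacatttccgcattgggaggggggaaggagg
Gyg: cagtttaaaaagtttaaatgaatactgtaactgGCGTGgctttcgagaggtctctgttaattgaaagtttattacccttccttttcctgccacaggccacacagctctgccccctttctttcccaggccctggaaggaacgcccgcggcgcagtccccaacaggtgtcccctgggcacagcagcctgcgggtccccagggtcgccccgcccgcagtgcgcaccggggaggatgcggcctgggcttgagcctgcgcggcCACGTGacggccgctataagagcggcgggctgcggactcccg

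Gys1 and Gbe1 held neither ACGTG nor GCGTG in these windows. Ugp2 held ACGTG 169 bases before its start and GCGTG at 4 further places, counting overlapping matches as 1, while its other RefSeq start gave a window with neither. Gyg held 1 ACGTG match, which was part of the palindrome CACGTG 8 bases after its start. Among the other members, Pygb had 1 ACGTG match 163 bases before its start, Pygl had 1 at 131 bases, and Ppp1r3c had 2, at 189 and 104 bases. Stbd1 and Phka2 held GCGTG only. In total 5 of 9 members had ACGTG, against 19.6% of all 32851 RefSeq windows, and 7 of 9 had ACGTG or GCGTG, against 43.8%. The genes were selected on their expression and the windows were not matched for base content, so nothing is read from these shares. Such a match is a run of letters and does not show a bound factor. The Pygl window ends at 70227933, inside the deposited span of that gene, whose annotated start lies further upstream.

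On the route to UDP-glucose, the phosphoglucomutase step was higher as well. Pgm1, which interconverts glucose 6-phosphate and glucose 1-phosphate, had 95.78, 99.34 and 100.88 FPKM in GB2-treated libraries 1, 2 and 3, against 27.56, 28.64 and 27.42 FPKM in untreated replicates. It rose 3.58-fold, with a log2 change of 1.84 ± 0.04 (SE, edgeR FDR = 9.23e-08). Pgm2 had 18.2 ± 0.811 FPKM in GB2-treated cells against 11.9 ± 0.202 FPKM in untreated cells (SD, n = 3 each) and a log2 change of 0.63 ± 0.05 (SE, edgeR FDR = 1.96e-05), under the fold threshold. Pgm2l1, which makes the glucose 1,6-bisphosphate cofactor of the mutases, had 3.18 ± 0.0954 FPKM in GB2-treated cells against 6.06 ± 0.266 FPKM in untreated cells and a log2 change of -0.91 ± 0.05 (SE, edgeR FDR = 5.67e-06), also under it. Exons of some listed genes overlap a gene on the opposite strand, by 13.6% for Pgm1 (Itgb3bp), 6.47% for Gys1 (Ruvbl2), 9.68% for Phkg1, 16.5% for Ppp1ca, 21.9% for Phkg2, and 28.3% for each of Gsk3a and Gabarapl1. Exons of Ppp1r3f overlap a model on the same strand by 46.9%, and those of Ppp1cb by 17.5%. These are shares of exonic bases and not of reads, so how far reads of the overlapping genes add to these values is not known. Genes on the opposite strand could add to them only if counting ignored strand.

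Glycogen phosphorylase, which releases glucose 1-phosphate from chain ends, exists as brain, liver and muscle isoforms. Pygb, the brain isoform and the main one in these cells (ENSMUSG00000033059, chr2:150786735-150831758, plus strand), had 5.70, 7.85 and 8.96 FPKM in GB2-treated libraries 1, 2 and 3, against 14.60, 14.56 and 13.66 FPKM in untreated replicates. Every treated library lay below every untreated one, and replicate 1 was the lowest. The log2 change was -0.91 ± 0.14 (SE), or 1.88-fold lower, and the gene was not called. It passed the fold threshold without GB2-treated replicate 3 (-1.02) and without replicates 2 and 3 together (-1.24), where 1 treated library remains and the spread comes from the untreated libraries alone. Levels in that pair lay above replicate 1, as did the tissue markers, whose part was not tested.

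Pygl, the liver isoform (ENSMUSG00000021069, chr12:70190811-70231488, minus strand), was a low gene with 0.55, 1.73 and 2.12 FPKM in GB2-treated libraries 1, 2 and 3, against 0.11, 0.17 and 0.12 FPKM in untreated replicates. All treated libraries were above the untreated range, but replicates 2 and 3 averaged 3.50 times replicate 1. The log2 change was 3.42 ± 0.50 (SE) with all libraries and 2.09 with GB2-treated replicate 1 alone. On the log2(FPKM + 1) scale it was 1.06, since a pseudocount of 1 shrinks differences between low levels. Replicates 2 and 3 also carried liver markers, whose part in this difference was not tested.

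Pygm, the muscle isoform, had 0.06, 3.86 and 4.67 FPKM in GB2-treated libraries 1, 2 and 3, against 0.19, 0.13 and 0.08 FPKM in untreated replicates. GB2-treated replicate 1 lay below the untreated range and the other pair far above it. With all libraries Pygm passed the thresholds (log2 change 4.38 ± 1.24 SE, edgeR FDR = 0.0191). Leaving out any 1 of the untreated libraries ended the call (FDR from 0.0567 to 0.0773), and the sign turned without GB2-treated replicates 2 and 3 (-0.90, FDR = 0.349), with FDR from 8.78e-07 to 0.349 over all alternatives.

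The makeup of phosphorylase transcripts therefore differed between treated libraries. Pygb made up 90.3%, 58.4% and 56.9% of the summed phosphorylase FPKM in GB2-treated libraries 1, 2 and 3, against 98.0%, 98.0% and 98.6% in untreated replicates. The sum itself was 6.31, 13.44 and 15.75 FPKM in the treated replicates, against 14.90, 14.86 and 13.86 FPKM in untreated replicates. Replicate 1, the treated library without the tissue markers, was far below the untreated range, replicate 2 just below it and replicate 3 above it. Gys1 stood at 16.6, 7.73 and 6.79 times that sum in treated replicates 1, 2 and 3 and at 1.14, 1.18 and 1.16 times in untreated ones, so synthase exceeded phosphorylase transcripts by more in every treated library.

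**Figure D2:**
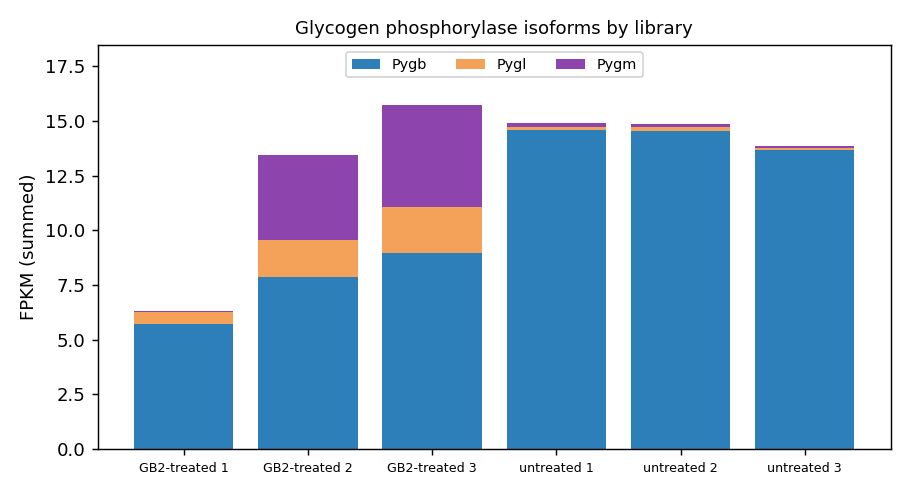
Summed FPKM of the 3 glycogen phosphorylase genes in each library, with GB2-treated libraries on the left and untreated libraries on the right. Bar segments are Pygb, Pygl and Pygm from the bottom. GB2-treated replicate 1 has the shortest bar (6.31 FPKM) and almost no Pygm, while Pygm reaches 3.86 and 4.67 FPKM in replicates 2 and 3.

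No phosphorylase kinase subunit reached the fold threshold. Phka2, the alpha subunit that predominates in liver (ENSMUSG00000031295, chrX:160502166-160591141, plus strand), had 3.60, 3.52 and 4.0 FPKM in GB2-treated libraries 1, 2 and 3, against 4.84, 4.78 and 4.68 FPKM in untreated replicates. The groups did not overlap, but the log2 change was -0.35 ± 0.06 (SE), or 1.27-fold lower. Its muscle counterpart Phka1 had 1.92, 1.55 and 1.76 FPKM in GB2-treated cells against 2.33, 2.65 and 2.30 FPKM in untreated cells (log2 change -0.46 ± 0.11 SE, edgeR FDR = 0.00852), under the fold threshold. Phkb, the beta subunit, had 5.89 ± 0.326 FPKM in GB2-treated cells against 5.74 ± 0.0436 FPKM in untreated cells (SD, n = 3 each), and its log2 change was 0.05 ± 0.04 (SE, edgeR FDR = 0.340). The catalytic subunit genes Phkg2 (log2 change 0.20 ± 0.07 SE, edgeR FDR = 0.0397) and Phkg1 (-0.65 ± 0.28, FDR = 0.0857) were not called. Of the 4 kinase genes outside the set, 0 were called by edgeR or the DESeq2 Wald test, beside 21.2% of all tested genes by edgeR. At the FDR threshold alone 1 (Phkg2) was higher and 1 (Phka1) lower, beside 26.8% and 29.6% of all tested genes. Phkg1, with 80, 91 and 135 estimated counts in GB2-treated libraries 1, 2 and 3 against 200, 187 and 177 in untreated replicates, had a log2 change of -1.07 with replicate 1 as the only treated library.

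The PP1-targeting subunits that bring the phosphatase to glycogen were low throughout, and Ppp1r3b rather than Ppp1r3c carried the difference shared by all treated libraries. Ppp1r3c, also called PTG (ENSMUSG00000067279, chr19:36731731-36736653, minus strand), had 0, 175 and 227 estimated counts in GB2-treated libraries 1, 2 and 3, against 0 in all 3 untreated libraries. In FPKM this was 0, 0.96 and 1.26 in the treated libraries. The gene was thus detected only in the pair that carried tissue markers. Against a floor of 3 counts per library, which is what a count of 0 allows, that pair averaged at least 80.9-fold higher than the untreated libraries and at least 76.6-fold higher than GB2-treated replicate 1. These bounds cover counting error only, and would be 4 times lower if the pile-up of low counts at multiples of 4, whose cause is not known, meant that 1 fragment gave 4 counts.

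Ppp1r3b, the subunit best known from liver, had 3.46, 4.67 and 4.46 FPKM in GB2-treated libraries 1, 2 and 3, against 0.39, 0.27 and 0.39 FPKM in untreated replicates. It rose in all 3 treated libraries, 12.0-fold over the fit, with a log2 change of 3.58 ± 0.19 (SE, edgeR FDR = 3.63e-06) and 3.37 without GB2-treated replicates 2 and 3. Its share of the FPKM summed over 7 targeting subunits was 64.4% ± 4.85 in GB2-treated cells and 24.8% ± 6.16 in untreated cells (SD, n = 3 each). Ppp1r3e was called higher at 0.62, 0.77 and 0.56 FPKM in GB2-treated cells against 0.26, 0.38 and 0.24 FPKM in untreated cells (log2 change 1.16 ± 0.30 SE, edgeR FDR = 0.0128), but not with limma on log2(FPKM + 1) or log2(FPKM + 0.1), where it was 0.35 and 0.94. Ppp1r3d and Ppp1r3f were not called (log2 changes -0.33 ± 0.32 and 0.33 ± 0.24 SE). Ppp1r3a, a muscle subunit, had 0, 90 and 91 counts in treated replicates 1, 2 and 3 against 0 in every untreated library, and Ppp1r3g had at most 4 counts.

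Stbd1, a protein that binds glycogen through a starch-binding domain and is linked to its delivery to lysosomes (ENSMUSG00000047963, chr5:92603041-92606579, plus strand), had 0.18, 0.57 and 0.63 FPKM in GB2-treated libraries 1, 2 and 3, against 0.14, 0.22 and 0.07 FPKM in untreated replicates. GB2-treated replicate 1 lay inside the untreated range, with 31 estimated counts against 24, 41 and 12 in untreated replicates. The log2 change of 1.70 ± 0.62 (SE) passed the thresholds narrowly, kept that call in 4 of 13 alternatives and was 0.43 without GB2-treated replicates 2 and 3. Gabarapl1, an autophagy protein that binds Stbd1, had 42.70, 38.73 and 41.04 FPKM in the treated replicates, against 58.16, 58.88 and 58.74 FPKM in untreated replicates (log2 change -0.50 ± 0.04 SE, edgeR FDR = 3.58e-05), under the fold threshold.

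Among other genes acting on glycogen, Epm2a rose and Gaa was not called. Gaa, the lysosomal alpha-glucosidase, had 28.52, 27.64 and 27.54 FPKM in GB2-treated libraries 1, 2 and 3, against 52.18, 52.38 and 50.20 FPKM in untreated replicates (log2 change -0.87 ± 0.04 SE, edgeR FDR = 2.67e-06), under the fold threshold. Epm2a, which encodes laforin, a phosphatase of glycogen itself, rose to 13.70, 12.66 and 12.86 FPKM in the treated replicates, against 5.10, 4.23 and 4.53 FPKM in untreated replicates (log2 change 1.52 ± 0.08 SE, edgeR FDR = 3.60e-06). The synthase kinase genes Gsk3a and Gsk3b, whose products switch synthase off, were not called (log2 changes -0.11 ± 0.05 and 0.42 ± 0.05 SE, edgeR FDR = 0.109 and 0.000411). Gsk3b was under the fold threshold alone. The PP1 catalytic genes Ppp1ca, Ppp1cb and Ppp1cc were not called either (0.24 ± 0.06, 0.61 ± 0.05 and -0.32 ± 0.10 SE). They passed the FDR threshold (edgeR FDR = 0.0110, 3.22e-05 and 0.0244) but were under the fold threshold.

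Gys2, the liver synthase, had 12, 122 and 105 estimated counts in GB2-treated replicates 1, 2 and 3, against 0, 4 and 0 in untreated replicates. Its level stayed under 1 FPKM, and Gys1 made up at least 99.3% of synthase FPKM in every library. Gys2 was called higher with all libraries (log2 change 6.04 ± 1.34 SE, edgeR FDR = 0.00651). The call was lost with limma on log2(FPKM + 1), where the log2 change was 0.50. It was also lost without GB2-treated replicates 2 and 3, where the log2 change was 3.22.

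Counted over the 35 other listed genes, which cover the glycogen route with glucose 6-phosphate exit and other users of UDP-glucose, 31 were tested, 10 rose, 0 fell and 21 were not called, beside 13.4% called higher and 7.73% called lower among all tested genes. The DESeq2 Wald test also gave 10 higher and 0 lower. At the FDR threshold alone 17 were higher and 5 lower, beside 26.8% and 29.6% of all tested genes. Their median log2 change was 0.24, beside 0.01 over all tested genes. These genes were listed with earlier results of these data known, so nothing is read from these counts. The plot of log2 changes shows the genes that moved with that pair of libraries as those whose open markers lie away from their filled ones.

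**Figure D3:**
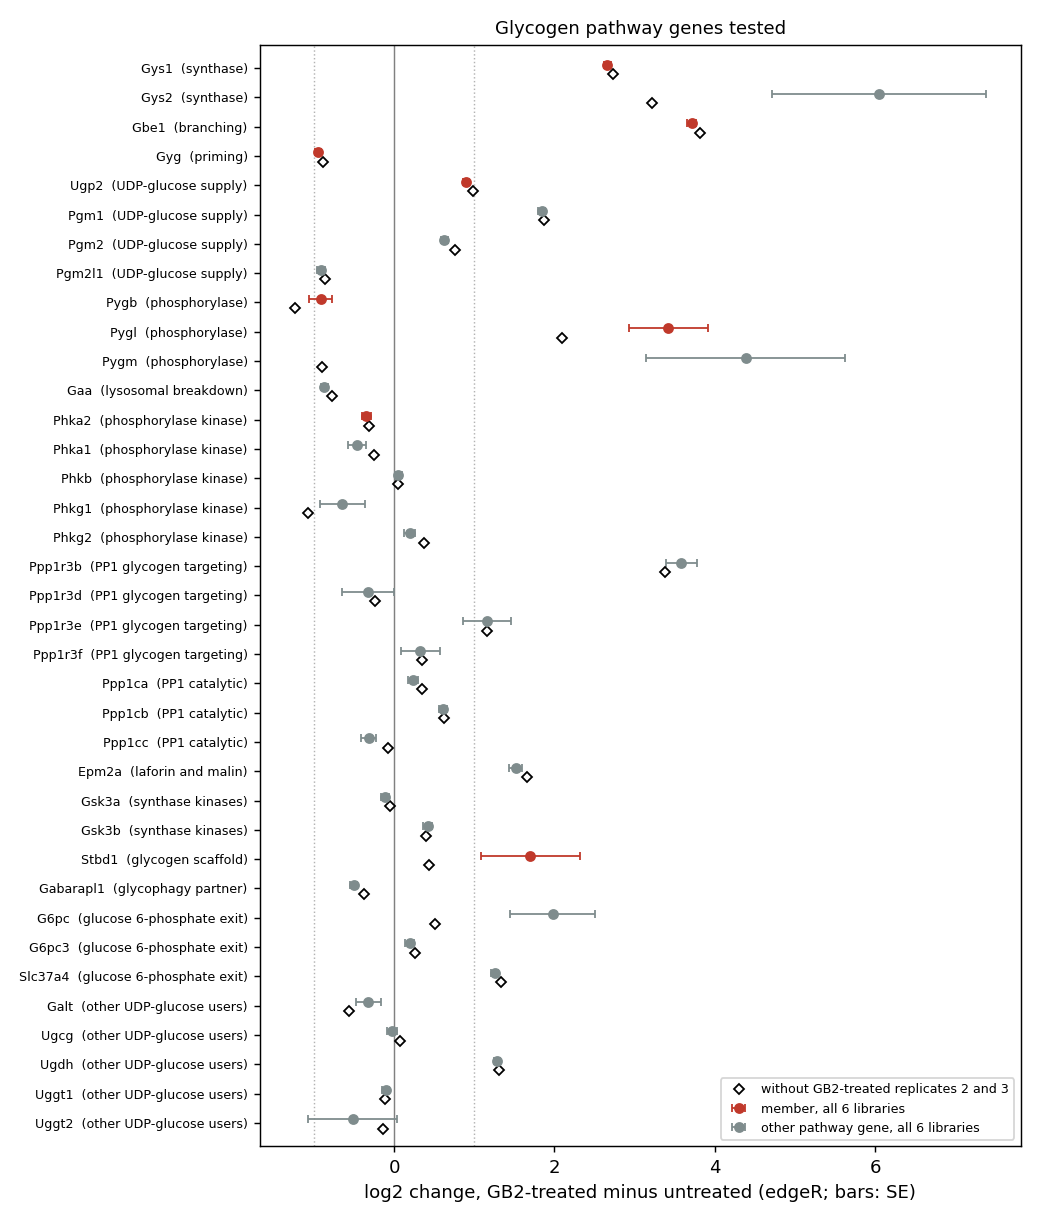
Log2 change (GB2-treated minus untreated, edgeR) of tested glycogen pathway genes, ordered by role. Filled points with SE bars use all 6 libraries (red, members; grey, other listed genes), open diamonds leave out GB2-treated replicates 2 and 3, and dotted lines mark a log2 change of 1 in either direction. Gys1, Gbe1, Pgm1 and Ppp1r3b lie above 1 in both fits, while Pygm has 4.38 with all libraries and -0.90 without that pair, and Stbd1 has 1.70 and 0.43.

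Markers of other tissues moved with the low genes. All 5 liver markers (Alb, Apoa1, Ttr, Fgb and Serpina1a) were higher in GB2-treated replicates 2 and 3 than in every other library, with sums of 0.34, 473.82 and 455.31 FPKM in GB2-treated libraries 1, 2 and 3 and 0.22 to 0.43 FPKM in untreated libraries, where Alb and Apoa1 were at 0, as they were in GB2-treated replicate 1. Of 5 skeletal muscle markers 3 were higher in that pair (Ckm, Acta1 and Tnnt3), with sums of 1.03, 7.20 and 11.87 FPKM in the treated replicates, against 0.88 to 1.18 FPKM in untreated libraries. Myh4, a fast muscle myosin, was at 0 in both libraries of the pair. Mylpf, also a muscle marker, had 0.66 and 0.70 FPKM in the pair, against 1.01 FPKM in GB2-treated replicate 1 and 0.69 to 1.18 FPKM untreated. All 5 epithelial markers (sums 0.82, 48.41 and 58.21 FPKM in the treated replicates, against 0.92 to 1.27 FPKM untreated), all 3 erythroid and all 4 fibroblast markers, and 1 of 4 adipose markers were also higher in the pair. Pygl, Pygm, Stbd1, Ppp1r3c, Ppp1r3a and Gys2 followed the same libraries, and the part of other tissues in their values was not tested. Gys1, Gbe1, Ugp2, Gyg, Phka2, Pgm1 and Epm2a did not, and kept similar log2 changes with GB2-treated replicate 1 as the only treated library (1.65 for Epm2a and 1.87 for Pgm1), where Alb, Apoa1, Acta1 and Tnnt3 were at 0.

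**Figure D4:**
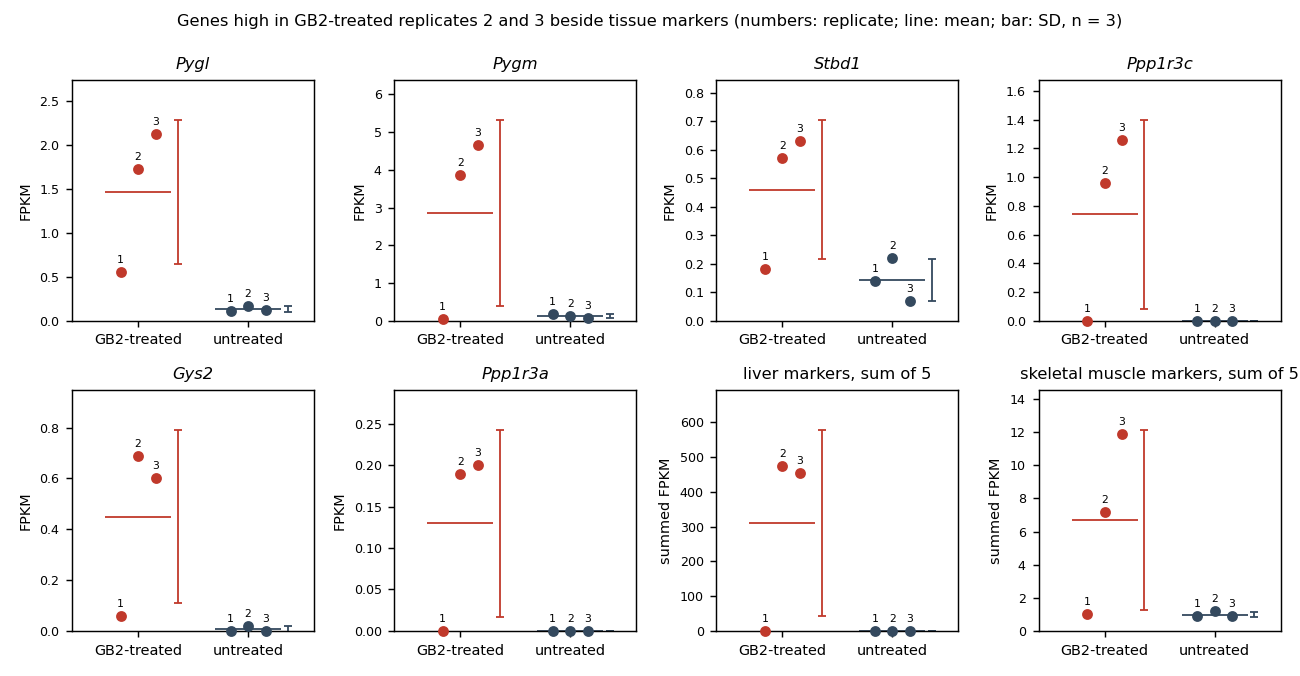
FPKM of 6 low glycogen genes and summed FPKM of 5 liver and 5 skeletal muscle markers by library, each panel with its own axis from 0, GB2-treated on the left and untreated on the right. Points are libraries with their replicate number, lines are means and bars are SDs (n = 3). In all 8 panels GB2-treated replicates 2 and 3 lie above the other libraries, and only Pygl (0.55 FPKM) and Gys2 (0.06 FPKM) have replicate 1 above every untreated library.

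The order of levels among the 9 genes also differed. In GB2-treated cells it ran from Gys1 (105.3 ± 1.52 FPKM) through Ugp2 (68.1 ± 1.61), Gbe1 (46.4 ± 0.902), Gyg (34.2 ± 0.505), Pygb (7.50 ± 1.66) and Phka2 (3.71 ± 0.257) to Pygl, Ppp1r3c and Stbd1 (SD, n = 3). The ranges of the last 3 overlapped, and all other neighbors were apart. In untreated cells it ran from Gyg (66.8 ± 0.840 FPKM) through Ugp2 (37.0 ± 1.38), Gys1 (16.8 ± 0.673), Pygb (14.3 ± 0.532), Phka2 (4.77 ± 0.0808) and Gbe1 (3.58 ± 0.221) to Stbd1, Pygl and Ppp1r3c, where Stbd1 and Pygl overlapped. Gbe1 ranked 3 in GB2-treated cells and 6 in untreated cells, and Gyg ranked 4 in GB2-treated cells and 1 in untreated cells.

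For the members with the largest fitted changes, the nearest profiles among 7346 tested genes of at least 5 FPKM in either group were sought by Euclidean distance of centred log2(FPKM + 1) over the 6 libraries. The genes nearest to Gbe1 were Ier3 (distance 0.184), Egln3 (0.195) and Rgcc (0.211). Egln3, an oxygen-sensing prolyl hydroxylase, had 30.62, 30.35 and 32.47 FPKM in GB2-treated libraries 1, 2 and 3, against 2.40, 2.10 and 2.10 FPKM in untreated replicates. The genes nearest to Pygl were Me1 (0.182), mt-Ti (0.283) and Slc34a1 (0.362). Me1, malic enzyme, had 7.65, 14.43 and 14.88 FPKM in GB2-treated cells against 5.33, 5.01 and 5.51 FPKM in untreated cells, again with replicates 2 and 3 above replicate 1. The pseudocount of 1 shrinks changes of low genes such as Pygl, so near profiles need not have equal fitted changes. The log2 change was 3.42 for Pygl, against 1.24, 1.16 and 1.21 for Me1, mt-Ti and Slc34a1. It was 3.71 for Gbe1, against 3.37, 3.84 and 5.63 for Ier3, Egln3 and Rgcc. With 6 libraries in 2 groups these distances describe likeness of profile alone.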

How the data were processed

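RNA-seq of RAW264.7 cells was analysed in 3 GB2-treated and 3 untreated libraries, grouped by the sample labels. Processing notes of the submitters list mm10, edgeR, DESeq2, StringTie 2.1.6, HISAT2 2.2.1 and cutadapt 1.9. Counting method, strand setting and annotation were not given in the sources used here. Whole-number estimated counts and FPKM values for 28836 genes were deposited by the authors. FPKM served for levels. Low counts pile up at multiples of 4 (952 genes with 4 counts against 397 with 3 in untreated replicate 1), for a reason not known, so 1 alternative divided counts by 4. Libraries within a group differed by more than sampling noise (chi-square per degree of freedom of at least 12.5).

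Estimated counts were fitted in R 4.3.3 using edgeR 4.0.16 (quasi-likelihood F test, TMM, default filter, no covariate, Benjamini-Hochberg over 17124 genes), after a check on simulated data. Each SE was taken as the absolute log2 change over the root of F. Alternatives used DESeq2 1.42.0, limma 3.58.1 on log2(FPKM + 1 or 0.1), other scaling and filtering, a replicate block, and fits leaving out libraries. Without GB2-treated replicates 2 and 3 the lone treated library is assumed to vary like the untreated ones. Members, the 35 other pathway genes and all lists were chosen with earlier results of these data known. Named genes were all members, the called genes and tissue isoforms of the list, phosphorylase kinase subunits, Gaa, Pgm1, Pgm2, expressed PP1-targeting subunits, and the 3 genes nearest in profile to the 2 members with the largest change. Pgm2l1, Gsk3a, Gsk3b, Gabarapl1, G6pc3, PP1 catalytic genes, uncalled users of UDP-glucose and genes too low to test were named outside this rule after their values were seen. Some listed genes are counted but not reported here by name. Gene coordinates are those of the table, exon overlaps come from GENCODE M21, and promoter sequences come from RefSeq (GRCm38.p6).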

Additional observations from a re-analysis of the deposited data

How the results depend on the processing

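Gys1, Gbe1, Ugp2, Gyg, Pygl and Phka2 kept their call and direction in all 14 alternatives. Over the 39 tested genes, 510 of 544 values under alternatives kept direction and call, 22 lost a call, 3 gained one and 9 changed sign. The count of members called higher was 4 and fell to 3 with counts divided by 4, no expression filter, limma or the replicate block. Over fits leaving out 1 library it was 3 to 4, with 0 to 1 lower. Without GB2-treated replicates 2 and 3 together 1 member (Pygb) and 1 other pathway gene (Phkg1) were called lower, with the lone treated library assumed to vary like the untreated ones, and the other pathway genes called higher ranged from 8 to 10 when 1 library was left out. Over all genes, 2300 were called higher and 1324 lower, against 605 and 617 with limma on log2(FPKM + 1), where the pseudocount shrinks low genes, 1446 higher without GB2-treated replicates 2 and 3, and 1745 to 2816 higher and 1226 to 1444 lower when 1 library was left out. The calls of Stbd1, Pygm, Gys2 and G6pc were lost without GB2-treated replicates 2 and 3.

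Pygm was -0.90 without GB2-treated replicates 2 and 3. Ugcg, at -0.02, was 0.0210 under DESeq2 size factors, 0.0211 in the DESeq2 Wald test, 0.0381 with counts divided by 4, 0.0791 without GB2-treated replicates 2 and 3, and -0.0464 to 0.0309 when 1 library was left out. Uggt2, at -0.52, was -0.93 to 0.0373 when 1 library was left out, the highest without untreated replicate 3. Causes were not tested. In promoters, ACGTG was present in 5 members, GCGTG in 7 and CACGTG in 2.

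Same-numbered libraries of the groups deviated together with correlations of 0.0389, 0.119 and 0.101, not all over 0.1, so the numbers were not taken as pairs, although each library correlated best with its own number. With the replicate block, 3 members were called higher and 0 lower, and 9 other pathway genes were called higher. Alone among the members, Stbd1 (log2 change 1.65) lost its call there, as did Pygm among the others (3.68, FDR = 0.142). Low counts limit precision for Ppp1r3c, Ppp1r3a, Gys2 and Stbd1, which had at most 41 counts in untreated libraries.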

Other observations

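UDP-glucose also feeds routes other than glycogen. Ugdh, which oxidises it to UDP-glucuronic acid, rose to 16.77, 16.83 and 18.05 FPKM in GB2-treated libraries 1, 2 and 3, against 6.91, 7.22 and 7.36 FPKM in untreated replicates (log2 change 1.28 ± 0.04 SE, edgeR FDR = 3.09e-07). All 3 treated libraries lay above the untreated ones. The glucosylceramide synthase gene Ugcg (log2 change -0.02 ± 0.06 SE) and the glycoprotein glucosyltransferase genes Uggt1 (-0.11 ± 0.04) and Uggt2 (-0.52 ± 0.56) were not called, and the sign of Ugcg and of Uggt2 turned in some alternatives. P2ry14, a receptor for extracellular UDP-glucose, had 0, 20 and 4 estimated counts in GB2-treated replicates and 0, 0 and 8 in untreated replicates, too few to test.

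Glucose 6-phosphate released from glycogen can be carried into the endoplasmic reticulum and dephosphorylated there. Slc37a4, the transporter, rose to 17.25, 16.47 and 17.75 FPKM in the treated replicates, against 7.35, 7.18 and 7.29 FPKM in untreated replicates (log2 change 1.25 ± 0.04 SE, edgeR FDR = 4.65e-07). G6pc3, the phosphatase of most tissues, had 15.5 ± 0.605 FPKM in GB2-treated cells and 13.7 ± 0.777 FPKM in untreated cells (SD, n = 3 each). It was not called (log2 change 0.20 ± 0.06 SE, edgeR FDR = 0.0220), being under the fold threshold. G6pc, the liver and kidney phosphatase, had 0.93, 3.76 and 3.41 FPKM in the treated replicates, against 0.73, 0.43 and 0.91 FPKM in untreated replicates. It was called higher with all libraries (log2 change 1.98 ± 0.53 SE, edgeR FDR = 0.0153). The call was lost without untreated replicate 1 and without untreated replicate 2. Its log2 change dropped to 0.51 when replicates 2 and 3 of the treated cells were left out.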
